A study of Mus musculus with 4 samples.

Results

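The antigen presentation genes of the mouse major histocompatibility complex (MHC, called H2 in mice) were followed in kidney RNA of mice with beta-thalassemia. The set held every non-control probe whose gene name in the array files starts with H2-, apart from the complement gene H2-Bf. It also held the probes named B2m, Tap1, Tap2, Tapbp, Cd74, C2ta, Psmb8, Psmb9 and Psmb10. These were 67 of the array's 41174 probes, and they carried 43 of its 27845 gene names. The choice used gene names and no measured value. The probes were sorted by textbook role into class I genes, class II genes and 2 probes for H2-Ke2 and H2-Ke6, genes of the region that encode a prefoldin subunit and a steroid dehydrogenase.

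The study compared kidneys of Th3 mice, in which the adult beta-globin genes beta-major and beta-minor were deleted, with kidneys labelled as control. There were 4 Th3 and 4 control RNA samples, and each of 4 two-colour oligonucleotide arrays took 1 sample of each kind. The Th3 sample was labelled with Cy5 on arrays 1 and 2 and with Cy3 on arrays 3 and 4. The labels give only the strain name Th3 or the word control. They give no genetic background, zygosity, age, sex or treatment for either group, and do not say whether the samples are from separate animals. The p-values therefore measure only how far these samples differ, which may be technical. The dye orientation and the kidneys on a pair of arrays cannot be told apart. As a check of the labels, the 4 probes of the deleted gene Hbb-b1 had log2 ratios of Th3 over control between -3.64 and -2.77 and were lower on every array.

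Class I molecules sit on nearly all nucleated cells and show peptides made in the cytosol to CD8 T cells. A class I heavy chain pairs with beta-2-microglobulin. Its peptide is made by the proteasome, whose immune form uses the subunits Psmb8, Psmb9 and Psmb10, and is carried into the endoplasmic reticulum by Tap1 and Tap2. Class II molecules are made chiefly by dendritic cells, B cells and macrophages and show peptides from endosomes to CD4 T cells. In the kidney, class II RNA comes largely from resident dendritic cells and macrophages. In bulk tissue RNA, fewer cells of a type and less RNA per cell cannot be told apart.

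Class II genes are switched on together by the transactivator CIITA, which is recruited by factors bound to short boxes just upstream of each gene. The promoters of 4 class II genes are printed because their transcripts were lower together. Each line gives the 130 bases before the start site, 5′ to 3′ on the gene's strand, from RefSeq on GRCm38.p6. Capitals mark GATTGG, the core of the Y box, on either strand (CCAATC on the other), and the letters of the X box, which were taken as TAG, AAC and GATG in that order with any 1 base between them. The letters of both motifs were chosen after these promoters had been seen.
H2-Aa (chr17:34287824-34287953, minus strand): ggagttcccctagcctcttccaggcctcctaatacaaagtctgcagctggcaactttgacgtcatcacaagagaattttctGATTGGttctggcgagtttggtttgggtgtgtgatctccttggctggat
H2-Eb1 (chr17:34305737-34305866, plus strand): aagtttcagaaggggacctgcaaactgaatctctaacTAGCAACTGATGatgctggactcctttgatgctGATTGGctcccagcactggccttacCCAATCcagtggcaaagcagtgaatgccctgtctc
H2-DMb1 (chr17:34153061-34153190, plus strand): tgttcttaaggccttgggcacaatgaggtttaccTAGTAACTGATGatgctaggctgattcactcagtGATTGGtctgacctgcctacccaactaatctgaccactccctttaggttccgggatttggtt
H2-Oa (chr17:34092249-34092378, plus strand): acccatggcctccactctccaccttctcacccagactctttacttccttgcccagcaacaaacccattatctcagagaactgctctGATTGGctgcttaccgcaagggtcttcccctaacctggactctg

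Over windows from 250 bases before to 50 after a start, searched on both strands, GATTGG was present in all 5 tested class II genes with an entry and in 7 of 13 tested class I genes. With the untested genes included, it was present in all 7 class II genes and in 16 of 23 class I genes with an entry, and in 74.2% of the members. It was present in 16.1% of all 32851 promoters in the table. The X box letters were present in 18 promoters, 0.0548% of all. Those of H2-Eb1 and H2-DMb1 were among them, which follows from the choice of letters after these promoters had been seen. Of the 13 class I promoters 0 were among them. For the same reason, this does not show that they lack an X box of other letters. The X box letters searched do not overlap GATTGG. A match describes the sequence and is not evidence of binding in these kidneys. Of the 43 gene names, 31 had an entry.

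The probes themselves limit what can be said of single class I genes, whose sequences are much alike. The probes named H2-Q10 and H2-Q5 are shown because they share a run of 35 of their 60 bases, given in capitals, and would both bind a transcript that carries it.
H2-Q10: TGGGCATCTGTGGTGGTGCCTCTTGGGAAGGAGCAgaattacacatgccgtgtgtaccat
H2-Q5: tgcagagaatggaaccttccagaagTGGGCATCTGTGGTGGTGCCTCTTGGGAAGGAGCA
H2-Q7 and H2-T23 probes shared a run of 28 bases, and H2-K1 and H2-Q10 probes a run of 20. Of the 24 tested class I heavy-chain probes, 6 list more than 1 RefSeq transcript in the array annotation. Values of class I heavy chains are therefore uncertain as to the gene.

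A second pair of probes, both named H2-Ab1, overlap by 31 bases and differ at 2 of them, given in capitals. They are shown because class II beta chains are polymorphic between mouse strains, and the labels name no strain background. If the groups carried different H2 alleles, a ratio could hold probe binding as well as RNA amount, which was not tested.
H2-Ab1 probe at chr17:33872973-33873032 (mm8): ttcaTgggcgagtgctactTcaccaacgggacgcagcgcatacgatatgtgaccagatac
H2-Ab1 probe with no position in the files: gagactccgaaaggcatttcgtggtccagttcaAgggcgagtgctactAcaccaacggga
Both were lower in Th3 kidney, the first with a log2 ratio of -0.95 ± 0.39 (SD, n = 4) and the second with -0.87 ± 0.41.

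Of the 67 probes, 51 probes of 29 genes could be tested, since in at least one of the groups all 4 samples had a signal well above background. The other 16 were left out for low signal. Among them were H2-Ea, the classical class II alpha chain that pairs with H2-Eb1, and 9 probes of the M family of class I genes (H2-M1, H2-M9, H2-M11 and H2-M10.1 to H2-M10.6). H2-Ea was well above background on 0 of 4 arrays in either channel. So were all of the M family probes left out except that of H2-M10.2, which passed on 3 arrays for Th3 and 2 for control. H2-DMb2 and H2-Ob, partners of H2-DMa and H2-Oa, were well above background on 1 array for control and 0 for Th3. The remaining ones were H2-T3, at 0 arrays in either channel, both probes of H2-T24, at 2 in each, and 1 probe of H2-Bl, at 3 in each. No tested probe was named for the classical class I genes H2-D1 or H2-L, so H2-K1 alone stood for that class.

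A ratio is given as log2 of Th3 over control, so -1 is a halving. A probe was called when its Benjamini-Hochberg adjusted p, over all 26434 tested probes of a limma fit with a dye term, was under 0.05. Because of the dye term, this p rests on how far arrays of the same orientation differ from each other. A ± is the SD over all 4 arrays and holds the difference between the pairs as well.

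Every tested class II probe was called lower in Th3 kidney, as were some of the class I probes. All 14 tested class II probes were called lower, 8 of 8 genes, with a median log2 ratio of -0.90. Of 35 class I probes, 12 were called lower, 0 higher and 23 were not called, with a median of -0.15. By gene, 9 of 19 class I genes were called by their brightest probe. Over all members, 26 of 51 probes were called lower and 0 higher, and 0 were higher at an unadjusted p under 0.05. Of all probes tested, 8.92% were called lower and 9.27% higher, and their median log2 ratio was 0.0033. All 14 class II probes and 13 of 35 class I probes were lower on 4 of 4 arrays, against 16.7% of all probes. A called decrease of at least 2-fold was found for 4 member probes, both of H2-Aa, that of H2-Eb1 and 1 of H2-Ab1, and for 0.219% of all probes. The member count was 16 without replicate 1, 16 without replicate 2 and 8 with arrays 1 and 2 alone, and those 8 were all class II. With array pairs entered as a random block 11 members were called, 10 of them class II, and H2-DMa (adjusted p = 0.0665), H2-DMb1 (0.147) and C2ta (0.0606) were not. With median centring in place of loess the member count was also 16, while 1398 of all probes were then called lower and 2281 higher. The share of all probes called lower fell as well. It was 4.22% without replicate 1, 4.73% without replicate 2, 3.84% with arrays 1 and 2 alone and 3.03% with the random block.

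**Figure D1:**
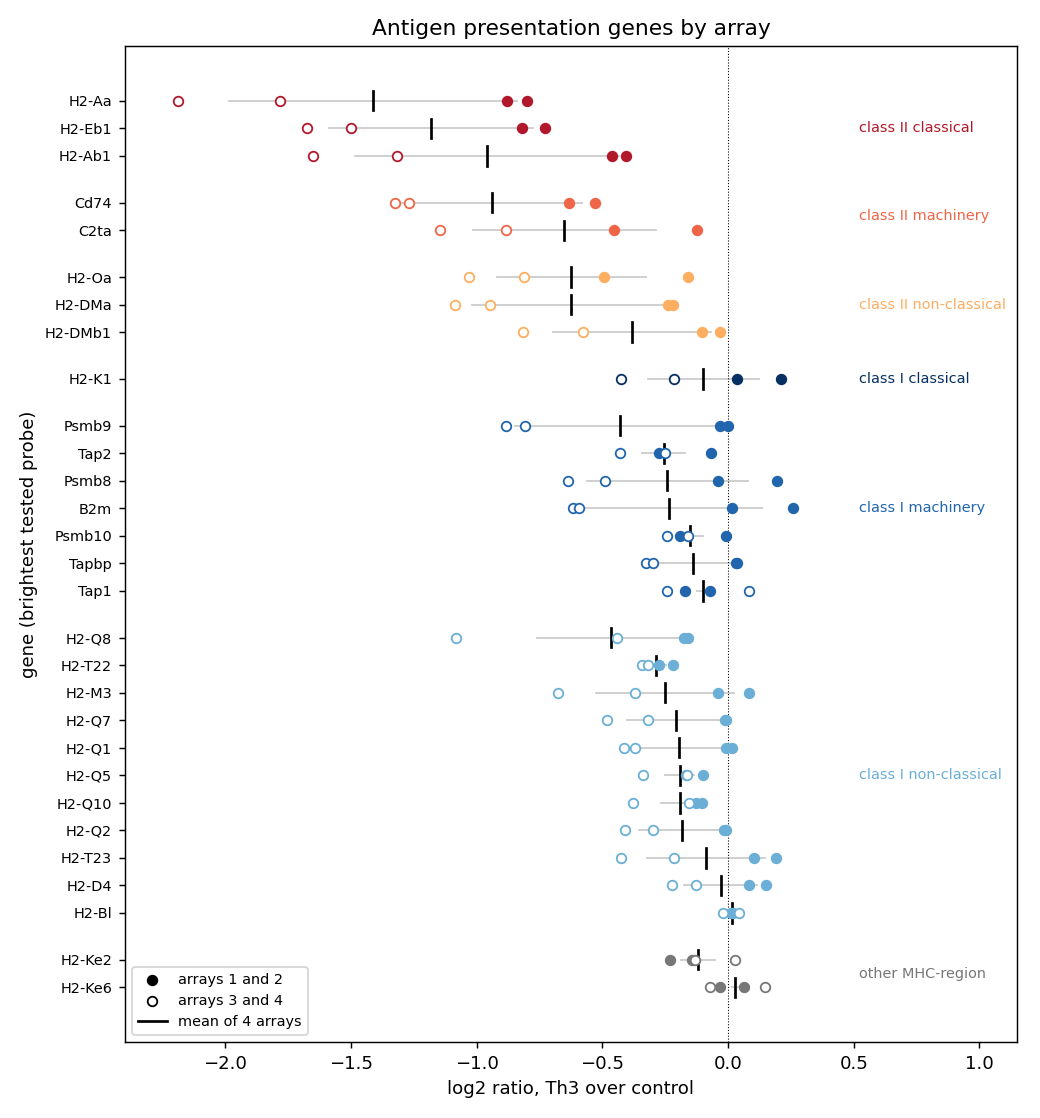
Log2 ratio of Th3 over control on each array for the brightest tested probe of each of the 29 genes. Filled circles mark arrays 1 and 2, open circles arrays 3 and 4, and a black tick the mean of 4 arrays. A grey line runs from the mean of arrays 1 and 2 to the mean of arrays 3 and 4. All class II genes lie left of 0 on every array, with H2-Aa lowest at -1.41, while most class I genes lie close to 0 on arrays 1 and 2.

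By brightest probe, the classical class II chains, which form the peptide-binding molecule itself, had the largest decreases among the members in the limma fit. The margin was small, with H2-Ab1 at -0.96 and Cd74 at -0.94, and the least lowered H2-Ab1 probe (-0.87) fell less than Cd74. With Agilent's processed signals this order did not hold, since H2-Oa (-1.49) and C2ta (-1.16) were then below H2-Ab1 (-0.97). Nor did it hold with the authors' deposited log2 ratios (H2-Oa -1.02, H2-Ab1 -0.97) or without replicate 4 (Cd74 -0.93, H2-Ab1 -0.88). With arrays 1 and 2 alone Cd74 had -0.58 and H2-Ab1 -0.43. All 7 tested probes of the classical chains were called in the limma fit, and their log2 ratios ran from -1.41 to -0.87 with a median of -1.10. H2-Aa, the alpha chain of the I-A molecule, had log2 ratios of -0.80, -0.88, -1.78 and -2.19 on arrays 1 to 4. All 4 arrays were below 0, and arrays 3 and 4 were the lowest. H2-Aa stood at 37.6% of control (log2 -1.41 ± 0.68, SD, n = 4, adjusted p = 0.000603). The less bright H2-Aa probe had -1.27 ± 0.64. In mm8 the brightest H2-Aa probe maps to chromosome 17, positions 33892680 to 33892739.

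H2-Eb1, the beta chain of the I-E molecule, had log2 ratios of -0.82, -0.73, -1.50 and -1.68 on arrays 1 to 4. It stood at 44.1% of control (log2 -1.18 ± 0.48, adjusted p = 0.000408). Both arrays of the second pair were again lower than both of the first. H2-Ab1, the beta chain of I-A, had log2 ratios of -0.40, -0.46, -1.32 and -1.65. It stood at 51.4% of control (log2 -0.96 ± 0.62, adjusted p = 0.00141). Its other 3 probes, which target other stretches of the transcript, had log2 ratios of -1.10, -0.95 and -0.87 and were all called. Under each of the alternatives run for single genes, H2-Aa, H2-Eb1 and H2-Ab1 were called lower.

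Levels in each sample are set beside these ratios. Each group was in 1 dye on arrays 1 and 2 and in the other dye on arrays 3 and 4. H2-Aa had log2 intensities of 9.89, 9.75, 10.84 and 10.89 in the control samples of arrays 1 to 4. In the Th3 samples its log2 intensities were 9.09, 8.87, 9.06 and 8.71. The groups did not overlap, and the control samples of arrays 3 and 4 were higher than those of arrays 1 and 2 while the Th3 samples were close to each other. H2-Eb1 had control log2 intensities of 10.94, 10.78, 11.78 and 11.66 and Th3 log2 intensities of 10.12, 10.06, 10.28 and 9.98, which did not overlap either. All 4 Th3 levels lay below all 4 control levels for 7 of 7 classical class II probes, against 9.00% of all probes. Over the 7 probes, the control level of arrays 3 and 4 minus that of arrays 1 and 2 had a median of 0.74 on the log2 scale. The same difference in the Th3 samples had a median of -0.08, and over all tested probes the medians were 0.0035 in control and -0.0080 in Th3. Both differences also compare 1 dye with the other, so they cannot show which samples set the ratios.

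**Figure D2:**
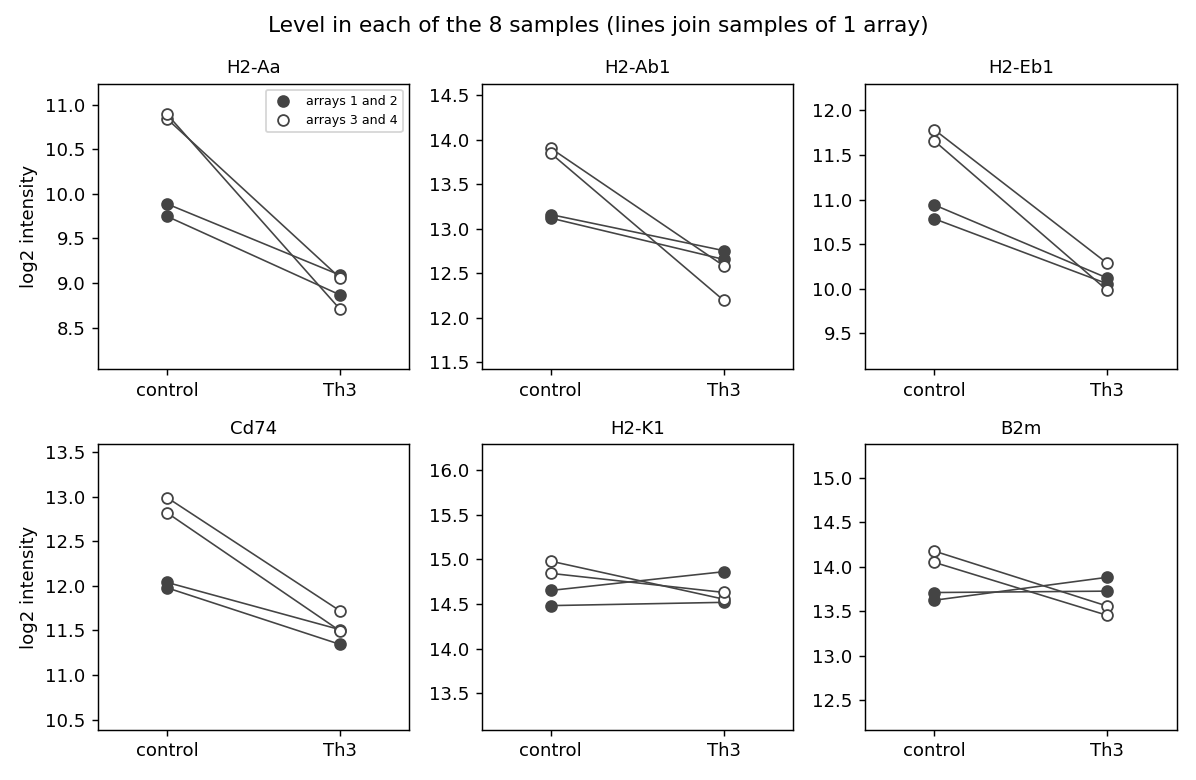
Log2 intensity in each of the 8 samples for 6 genes, with control left and Th3 right in each panel and a line joining the samples of 1 array (filled, arrays 1 and 2; open, arrays 3 and 4). Control levels of H2-Aa reach 10.89 on array 4 against 9.75 on array 2, while its Th3 levels lie between 8.71 and 9.09; for H2-K1 and B2m the groups overlap.

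Genes that serve class II molecules were lower as well. Cd74, the invariant chain that fills the groove and guides class II molecules to endosomes, had log2 ratios of -0.53, -0.63, -1.27 and -1.32 on arrays 1 to 4. It stood at 52.1% of control (log2 -0.94 ± 0.42, adjusted p = 0.00068). Its control log2 intensities of 12.04, 11.98, 12.99 and 12.82 all lay above its Th3 log2 intensities of 11.51, 11.34, 11.72 and 11.50. C2ta, the older name of the transactivator gene Ciita, had log2 ratios of -0.45, -0.12, -1.14 and -0.88. It stood at 63.7% of control (log2 -0.65 ± 0.45, adjusted p = 0.00513). C2ta had -1.16 when Agilent's processed signals were used. C2ta was not called when array pairs entered as a random block (adjusted p = 0.0606) or with arrays 1 and 2 alone (0.118).

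The non-classical class II genes, which act on peptide exchange inside the cell, had fitted values closer to 0. All 5 tested probes were called, with a median log2 ratio of -0.45 and a range from -0.62 to -0.38. H2-DMa, the alpha chain of the peptide exchange factor DM, had log2 ratios of -0.22, -0.24, -1.09 and -0.95 on arrays 1 to 4 and a fitted value of -0.62 ± 0.46 (adjusted p = 0.00213). H2-DMb1, a beta chain of DM, had -0.03, -0.10, -0.81 and -0.58 and a fitted value of -0.38 ± 0.38 (adjusted p = 0.0108). Its arrays 1 and 2 were close to 0, and its Th3 and control levels overlapped. H2-Oa, the alpha chain of DO, which restrains DM, had log2 ratios of -0.49, -0.16, -1.03 and -0.81 and a fitted value of -0.62 ± 0.38 (adjusted p = 0.00534). Its Th3 log2 intensities of 6.76, 6.70, 6.75 and 6.84 were not far above those of H2-Ob, left out for low signal (6.21 to 6.53). Without the dye term the adjusted p was 0.0576 for H2-DMa and 0.126 for H2-DMb1, and with arrays 1 and 2 alone none of the 3 genes was called (H2-DMa 0.0869, H2-DMb1 0.564, H2-Oa 0.0914). With Agilent's processed signals the class median was -0.79 and H2-Oa had a log2 ratio of -1.49, and with the authors' deposited log2 ratios H2-Oa had -1.02.

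H2-K1, the classical class I heavy chain, was not called by any of its 3 probes. Its brightest probe had log2 ratios of 0.21, 0.04, -0.43 and -0.21 on arrays 1 to 4, above 0 on the first pair and below on the second. The fitted value was -0.10 ± 0.28 (adjusted p = 0.32), and the other probes had 0.02 and -0.10. Control log2 intensities of 14.65, 14.48, 14.98 and 14.84 overlapped Th3 log2 intensities of 14.86, 14.52, 14.56 and 14.63.

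The class I machinery was lower for some genes, by small amounts. Of 11 probes 5 were called lower, and the median log2 ratio was -0.21. Psmb9, an immunoproteasome subunit, had the largest decrease of this group, with log2 ratios of -0.03, -0.0017, -0.88 and -0.81 on arrays 1 to 4. It stood at 74.1% of control (log2 -0.43 ± 0.48, adjusted p = 0.00498). Its call came with 2 arrays close to 0 and 2 well below. Psmb8, another subunit, had 0.20, -0.04, -0.49 and -0.64 and a fitted value of -0.24 ± 0.39 (adjusted p = 0.0445), and its other probe had -0.26. Psmb10, the third such subunit, was not called, at -0.15 ± 0.10 (adjusted p = 0.117). Psmb9 was not called without the dye term (adjusted p = 0.154), and with arrays 1 and 2 alone Psmb9 had a log2 ratio of -0.02 and Psmb8 one of 0.08.

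B2m, the light chain shared by class I molecules, had log2 ratios of 0.26, 0.02, -0.62 and -0.59 on arrays 1 to 4 by its brightest probe. The pairs of arrays lay on opposite sides of 0, and the Th3 and control levels overlapped. The fitted value was -0.23 ± 0.44 (adjusted p = 0.0424), while the other probes had -0.21 (0.117) and -0.0016 (0.989) and were not called. Tap2, a chain of the peptide transporter, had -0.27, -0.07, -0.25 and -0.43 and a fitted value of -0.26 ± 0.15 (adjusted p = 0.0372). Its partner Tap1 had -0.17, -0.07, 0.08 and -0.24 and was not called, at -0.10 ± 0.14 (adjusted p = 0.353). Tapbp, tapasin, which tethers class I molecules to the transporter, had 0.03, 0.04, -0.33 and -0.30 and was not called, at -0.14 ± 0.20 (adjusted p = 0.102). Leaving out any 1 array ended the B2m call (adjusted p from 0.0662 to 0.258), and Psmb8 and Tap2 lost theirs without replicate 1 (0.0686 and 0.217), 2 (0.248 and 0.0607) or 4 (0.094 and 0.0793).

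Non-classical class I genes, encoded in the Q, T and M regions, were called lower for 7 of 21 tested probes, with a median log2 ratio of -0.18 and a range from -0.46 to 0.12. H2-Q8, of the Qa-2 family, had log2 ratios of -0.18, -0.16, -1.08 and -0.44 on arrays 1 to 4. Array 3 stood apart from the other arrays. The fitted value was -0.46 ± 0.43 (adjusted p = 0.0274). H2-T22, a ligand of some gamma-delta T cells, had -0.27, -0.22, -0.34 and -0.32. These were close to each other on all 4 arrays and all 4 Th3 levels lay below the control levels. The fitted value was -0.29 ± 0.05 (adjusted p = 0.0137), and its other probes had -0.30 (called) and -0.22 (not called, adjusted p = 0.0904).

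H2-M3, which presents peptides that begin with formyl-methionine, had log2 ratios of 0.08, -0.04, -0.68 and -0.37. It was just inside the threshold at -0.25 ± 0.34 (adjusted p = 0.0497), and its other probe, at -0.03, was not called. H2-Q7, of the Qa-2 family, had -0.01, -0.01, -0.32 and -0.48 and a fitted value of -0.21 ± 0.23 (adjusted p = 0.046). H2-T23, the heavy chain of Qa-1, was not called, at -0.09 ± 0.29, nor was H2-D4 at -0.03 ± 0.18. H2-Q10, a secreted class I molecule best known from liver, had 1 called probe of 5, at -0.22, while its brightest probe had -0.19 ± 0.13 (adjusted p = 0.0694). H2-Q1 was called by its brightest probe, at -0.19 ± 0.23 (adjusted p = 0.043), and not by its others, at -0.04 and 0.12. H2-Q2 had -0.18 (adjusted p = 0.056), H2-Q5 -0.19 (0.0606) and the probes of H2-Bl 0.01 and -0.11, none of them called. H2-Q8, H2-T22, H2-M3 and H2-Q7 lost their calls with arrays 1 and 2 alone, where H2-M3 had a log2 ratio of 0.02. Without replicate 1 their adjusted p-values were 0.0503, 0.0858, 0.113 and 0.207, and without replicate 2 H2-T22, H2-M3 and H2-Q7 had 0.0572, 0.199 and 0.194. H2-M3 was also lost without replicate 3 (0.107) and H2-Q7 without replicate 4 (0.0907).

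Over class I as a whole the count of 12 called probes was 2 without replicate 1, 2 without replicate 2, 10 without replicate 3 and 6 without replicate 4. It was 2 with median centring, 1 without the dye term and 4 with Agilent's processed signals, whereas 14 class II probes were called under each of these except the fit without the dye term, where 11 were. Of all probes, 4.22%, 4.73%, 8.21% and 9.32% were called lower without replicates 1, 2, 3 and 4. The share was 5.29% with median centring, 4.43% without the dye term and 7.5% with Agilent's processed signals. Class I counts of 1 or 2 of 35 probes were thus near the share of the array as a whole. The Ke region probes were not called, with H2-Ke2 at -0.12 ± 0.11 and H2-Ke6 at 0.03 ± 0.10.

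Arrays 1 and 2 were then compared with arrays 3 and 4. The classical class II probes had a median log2 ratio of -0.73 on the first pair and -1.48 on the second. The non-classical class II probes had -0.23 and -0.73, and Cd74 and C2ta together had -0.44 and -1.16. Class I probes were close to 0 on the first pair, with medians of 0.04 for H2-K1, 0.03 for the machinery and -0.01 for the non-classical genes. On the second pair these medians were -0.20, -0.34 and -0.25. The negative class I medians thus came mainly from arrays 3 and 4.

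In the limma fit the difference between the pairs was the dye term. It was called for 0 of the 51 member probes, and for 0.0530% of all probes, 14 in number. The smallest adjusted p among members was 0.0534, and that of H2-Aa, with a difference of -1.15, was 0.0568. At an unadjusted p under 0.05, 32 member probes differed, against 15.9% of all probes. All 32 were lower on arrays 3 and 4, against 9.41% of all probes (0.0492% at the adjusted threshold). They were 14 of 14 class II probes and 18 of 35 class I probes. Other settings called between 0 and 6 member probes, except median centring, which called 48 and called 17354 of all probes.

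**Figure D3:**
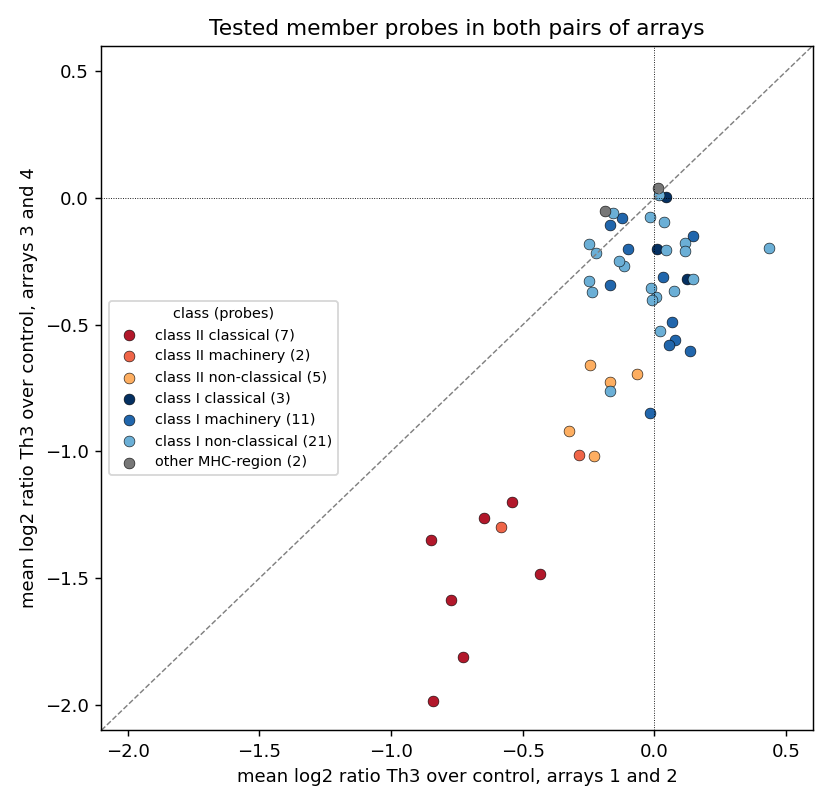
Mean log2 ratio of Th3 over control on arrays 1 and 2 (x axis) and on arrays 3 and 4 (y axis) for the 51 tested probes, coloured by class, with the dashed line marking equal values. Class II probes lie below 0 on both axes and below the dashed line, while class I probes scatter around 0 on the x axis and lie mostly between 0 and -0.85 on the y axis.

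The ratios can also be formed within 1 dye, across arrays, which removes the dye and compares other kidneys. In Cy5 (Th3 of arrays 1 and 2 minus control of arrays 3 and 4) the classical class II probes had a median of -1.40 on the log2 scale. In Cy3 (Th3 of arrays 3 and 4 minus control of arrays 1 and 2) they had -0.75. Non-classical class II probes had -0.79 and -0.16, and non-classical class I probes -0.25 and -0.12. All 7 classical class II probes and both class II machinery probes, but 3 of 5 non-classical class II probes, had all Th3 levels below all control levels. For class I this held for 4 of 35 probes, 1 of the machinery and 3 non-classical. Among all probes it held for 9.00%, so the class I share was near that of the array as a whole.

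Other probes of the MHC region are set beside the members, though the difference between them was not tested. On chromosome 17 the members span 33536605 to 36882517 of mm8, and 22 of the 44 tested there were called lower. Of 155 other tested probes in that interval, 19 (12.3%) were called lower and 9 higher, with a median log2 ratio of -0.05. The 6 tested members on other chromosomes, for B2m, Psmb10, Cd74 and C2ta, had 3 calls.

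A further 36 genes of antigen processing and its control were listed, of which 32 could be tested. Of these, 7 were called lower (8.92% of all probes were), 3 higher (9.27% of all probes) and 22 not called, with a median log2 ratio of -0.13. The 3 largest decreases were those of Il10ra, a chain of the interleukin-10 receptor (-0.59 ± 0.37), of March1, a ubiquitin ligase that removes class II molecules from the surface (-0.34 ± 0.32), and of Irf8, a transcription factor of dendritic cells and macrophages (-0.34 ± 0.17). The increases were those of Canx, the chaperone calnexin (0.46 ± 0.22), Ifngr1, a chain of the interferon-gamma receptor (0.35 ± 0.09), and Rfxap, a subunit of the RFX complex on the X box (0.20 ± 0.12). Chosen after their values were seen, the other RFX subunits Rfx5 and Rfxank had -0.13 and -0.16 and were not called. Irf1, a transcription factor induced by interferon, fell by 0.29 ± 0.21 on the log2 scale.

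Marker genes of immune cells were examined beside the class II genes, whose probes had median log2 ratios of -0.49 for the first pair of arrays and -1.23 for the second. Of 5 markers of all leukocytes 3 were called lower, against 8.92% of all probes. Their median log2 ratio was -0.53, and Cd52 (-0.72) and Ptprc, the surface protein CD45 (-0.59), had the largest changes. The first pair of arrays gave the 5 markers a median of -0.18 and the second pair one of -0.86. Their summed intensity was 2684 to 3627 in Th3 samples and 3513 to 6021 in control samples, so the groups overlapped.

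Of the dendritic cell markers, Itgax, Xcr1 and Clec9a could be tested. Itgax, the integrin CD11c, had log2 ratios of -1.03, -0.57, -1.12 and -1.22 on arrays 1 to 4. It was low on all 4 (-0.99 ± 0.29, adjusted p = 0.00213), and as with H2-Aa its decrease was present on both pairs. Clec9a was well above background in control on 4 arrays and in Th3 on 0, so it was tested only because of its control signal. Xcr1 was not called, at 0.05, and Flt3, Ccr7 and Cd209a were not tested for low signal. The summed intensity of Itgax, Xcr1 and Clec9a was 389 to 426 in Th3 samples and 504 to 624 in control samples. Because Clec9a entered this sum only through its control signal, the gap is no separate evidence of a difference.

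The counts of this paragraph stand against 8.92% of all probes called lower. Of 10 macrophage markers 8 were called lower, with medians of -0.40 over the fit, 0.02 on arrays 1 and 2 and -0.73 on arrays 3 and 4. Lyzs, lysozyme (-0.64 ± 1.11), and C1qa, a complement subunit (-0.54 ± 0.33), had the largest changes. Lyzs was above 0 on arrays 1 and 2 (0.45 and 0.15) and below on arrays 3 and 4 (-1.28 and -1.86). Of 7 listed B cell markers 4 were tested, without Cd22, Blk and Cd79a. Of these 4, 3 were called lower, with a median of -0.66, led by Pou2af1 (-0.77 ± 0.83) and Ms4a1, CD20 (-0.77 ± 0.62). Their Th3 log2 intensities were dim, at 6.74 to 7.07 for Pou2af1 and 6.53 to 6.78 for Ms4a1. Of 6 tested T and NK cell markers 4 were called lower, with a median of -0.33, led by Cd3d (-0.43 ± 0.40) and Lck (-0.34 ± 0.51). Cd4 and Ncr1, also listed, were not tested. Summed intensities overlapped between the groups for these lists, at 13323 to 24613 in Th3 and 16143 to 39238 in control for macrophages, 515 to 645 and 556 to 1325 for B cells, and 889 to 1165 and 968 to 1436 for T and NK cells. The part of these cells in the class II decrease was not tested.

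Markers of the kidney itself and of vessels were mostly not called, and of all probes tested 18.2% were called in either direction. The few calls among these markers therefore do not set them apart from the array. Of 5 endothelial markers 0 were called, with a median of 0.04. All 8 kidney markers, for tubule and podocyte, were well above background and tested, and 1 was called, Slc34a1, a phosphate transporter of the proximal tubule (-0.44 ± 0.26). Umod, uromodulin of the loop of Henle, was not called (-0.23 ± 0.69). It had log2 ratios of 0.43, 0.28, -0.68 and -0.95 on arrays 1 to 4, and its difference between the pairs, -1.17 (adjusted p = 0.0534), was of the size of that of H2-Aa. Fat markers varied between samples, and of 5 tested 2 were called lower and 1 higher. Those called lower were Ucp1, the uncoupling protein of brown fat, at -3.40 ± 0.93 and Cidea at -1.11 ± 0.95. Adipoq, adiponectin, named after its value was seen, was called higher at 1.00 ± 1.02. Summed fat marker intensity was 44859 to 65017 in Th3 samples and 24962 to 93881 in control samples. Its part in the member values was not tested.

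**Figure D4:**
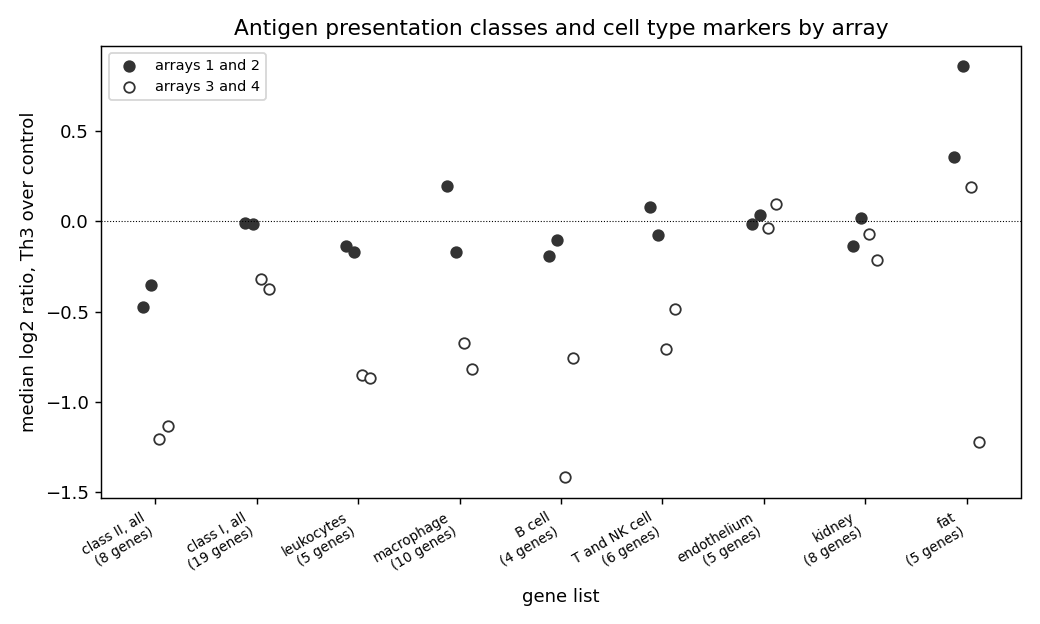
Median log2 ratio of Th3 over control on each array for the class II genes, the class I genes and the cell type marker lists other than dendritic cells, with filled circles for arrays 1 and 2 and open circles for arrays 3 and 4. The medians of class II genes, leukocyte markers and B cell markers lie below 0 on all 4 arrays, as do those of class I genes, by little on arrays 1 and 2. Those of macrophage markers and of T and NK cell markers lie below 0 on 3, and the medians of kidney markers lie between -0.22 and 0.02.

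In the authors' deposited table H2-Aa was lower by a fold of 2.92 (adjusted p = 0.0079), H2-Eb1 by 2.35 (0.0056) and Cd74 by 1.95 (0.00977). For H2-K1 the authors' deposited table gives a decrease by a fold of 1.08, with an adjusted p of 0.644. Most class I genes called here by their brightest probe had an adjusted p above 0.05 there. The values were 0.0579 for Tap2, 0.0769 for H2-Q8, 0.144 for Psmb9, 0.244 for H2-M3 and 0.27 for H2-Q7. They were 0.296 for H2-Q1, 0.316 for Psmb8 and 0.42 for B2m, while H2-T22 had 0.0451. The brightest probe of H2-DMb1, of class II, had 0.125. The sources used here do not name the test behind these values.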

How the data were processed

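The members, the gene lists and the tests were chosen with earlier results of these data known. Total RNA was amplified and labelled as cRNA, per the labels' protocols, and hybridised to Agilent arrays of design 014868, all 4 on 1 slide. The deposited scanner files hold, per the file headers, unnormalized spot and background intensities from Feature Extraction 9.5.3.1, processed intensities, and a log10 ratio of Cy5 over Cy3 that was used to check directions. The authors deposited a table of log2 ratios, a signed fold (a score whose rule is not stated) and adjusted p-values of an unnamed test. The sources used here do not give their normalization. Positions are on mm8, per the array annotation.

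Mean signals were corrected with normexp (offset 50) and normalized by loess within arrays (span 0.3, 4 iterations), giving weight 0 to control and outlier spots. Outlier spots (at most 186 on an array) were then left out, and 43379 spots were averaged to 41174 probes. Of the probes, 61.8% to 72.2% had a signal well above background per sample, and the number of arrays limits the precision. A tested probe had values on at least 3 arrays and was well above background on 4 arrays in either group. Ratios turned to Th3 over control correlated across probes at 0.673 and 0.684 within the array pairs and at 0.408 to 0.510 between them. Log2 ratios were fitted with limma 3.58.1 (R 4.3.3, with version 1.17.8 of data.table) on a Th3 term and a dye term, with 2 residual and 4.37 prior degrees of freedom, and a probe was called at a Benjamini-Hochberg adjusted p under 0.05. The fit was tested on simulated data.

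Every member gene could be named by its brightest tested probe, and values on each array are given for the classical and class II genes, the class I machinery and the 4 non-classical class I genes with the largest change. Of the pathway list the 3 largest called changes each way were named, and of each cell type list up to 2. Class medians are over probes, list medians over genes. Level differences between samples are on the log2 scale after Aquantile. Promoter sequences are RefSeq's on GRCm38.p6.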

Additional observations from a re-analysis of the deposited data

How the results depend on the processing

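Fitting arrays 1 and 2 alone, or 3 and 4 alone, was chosen after seeing the data. The 26 member probes called lower became 16 with median centring, 12 without the dye term, 11 with the pair as a random block (correlation 0.144), 17 of 29 with the brightest probe per gene name, 8 with arrays 1 and 2 alone, and 16 to 24 when a replicate was left out. Of all probes, 8.92% were called lower in the limma fit, 5.29% with median centring, 4.43% without the dye term and 3.03% with the random block. That share was 10.6% with the brightest probe, 3.84% with arrays 1 and 2 alone and 4.22% to 9.32% when a replicate was left out. The count of member probes called higher was 0 except for 1 with arrays 1 and 2 alone. Member probes that differed between the pairs, 0 in the limma fit, were 48 with median centring, 1 with both channels above background, 6 with robust variances and a trend on intensity, 6 with the brightest probe, 1 with the authors' deposited log2 ratios, and 0 to 3 when a replicate was left out. Class II counts stayed at 14 of 14, except 11 without the dye term, 10 with the random block, 8 with arrays 1 and 2 alone, 8 of 8 by brightest probe and 14 of 17 with no filter on dim probes. The median of non-classical class II was -0.79 with Agilent's processed signals. With arrays 1 and 2 alone the median was 0.045 for H2-K1, 0.033 for class I machinery and -0.011 for non-classical class I, and the direction turned for B2m (0.14), Psmb8 (0.078) and H2-M3 (0.022). Leaving out a replicate kept each class median within the spread between arrays. The cause of these shifts was not tested, other than the fewer arrays or features that a setting uses. No paired analysis was possible because no replicate number pairs samples beyond the array itself, and the pairing of 1 Th3 with 1 control sample on each array is already in the ratios fitted. Dim signal kept 16 member probes out of the test.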
